A study of Homo sapiens with 14 samples.

Results

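Here IMR90 fibroblasts exposed to 2'3'-dideoxycytidine (ddC) for 48 h were compared with untreated IMR90 fibroblasts. IMR90 is an established line of human lung fibroblasts of fetal origin, and the labels give its genotype as WT. The comparison used 5 of the study's 14 RNA sequencing libraries, chosen by their labels: 3 libraries from cells given 20 uM ddC for 48 h and 2 libraries from cells given the water vehicle. The study's other 9 libraries were from the same line after 24, 72 or 96 h of 20 uM ddC, with 3 libraries at each time. Every library was described as a biological replicate of this single line, so the spread between libraries is that between cultures of 1 line. The sample labels give the untreated cells 4 days in vehicle, whereas the design text lists them as 0 h of ddC, so the time at which the untreated cultures were collected is not settled by the labels. No vehicle library labelled 2 days was among the 14, and an effect of 48 h in culture cannot be told apart from an effect of 48 h of ddC.

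ddC is a chain-terminating analogue of deoxycytidine. Once phosphorylated in the cell, it is used by the mitochondrial DNA polymerase gamma, which removes it poorly, and mitochondrial DNA (mtDNA) is then lost as mitochondria and cells divide. The nuclear replicative polymerases use it much less readily. The study used it to follow the transcriptome at successive stages of mtDNA loss. The polyadenylated RNA was counted over 27142 nuclear gene entries, of which 0 lay on the mitochondrial chromosome, so the transcripts of mtDNA itself were not analysed here.

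The 5 libraries held between 10810326 and 12131902 counted reads, within the range of all 14 (9398703 to 12147402), and 13371 genes had enough counts to be tested. All 11 fibroblast markers were detected in each of the 5 libraries; COL1A1, the main chain of type I collagen, stood between 15694 and 18895 CPM, the counts scaled to a library of 1000000. The summed CPM of 7 epithelial, 6 endothelial and 6 blood markers was at most 63.7, 45.7 and 60.8. Most of these sums came from KRT18 (41.7 to 49.7 CPM), TEK (38.6 to 45.0 CPM) and CD68 (51.1 to 60.8 CPM). CDH1, SFTPC, PECAM1, CDH5 and CD3E had 0 counts. The 5 smooth muscle and pericyte markers summed to between 311 and 340.3 CPM untreated and between 314 and 385 CPM at 48 h, nearly all of it from CSPG4 (187 to 244 CPM) and CNN1 (107 to 131 CPM), whereas MYH11 and DES reached at most 1.36 and 1.19 CPM. Libraries of one group differed in nuclear-retained RNAs: MALAT1 read 95.1 and 271 CPM in the untreated libraries and 52.1, 264 and 178 CPM at 48 h, where replicate 1 was lowest. They differed also in reads on the strand opposite to abundant genes. That index, over 135 gene pairs, was 0.754 and 0.807 per 1000 reads untreated and 0.795, 0.805 and 0.991 at 48 h, where replicate 3 lay within the 0.917 to 1.04 of the 72 h and 96 h libraries. Transcript length moved with the comparison too. The median log2 fold change at 48 h was 0.07 for 827 genes with transcripts under 1000 bases and -0.18 for 341 genes with transcripts of 10000 bases or more. This gradient was steepest in 48 h replicate 1, where the median of the longest class was -0.28, against -0.13 and -0.15 in the others. The part of these differences in the gene values was not tested, other than by the alternatives given beside them.

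At 48 h, 1 gene passed the test across all genes. CDKN1A, which encodes the cyclin-dependent kinase inhibitor p21 and is the best-known transcriptional target of p53, rose, while the other members of the p53 target list lay mostly above their untreated level without passing. Genes of DNA replication lay mostly below their untreated level, also without passing. Changes were small among the 11990 tested genes whose log2 CPM averaged 1 or more. Their median size of the log2 fold change was 0.081 and 0 genes reached 1, which is 2-fold. Over all 13371 tested genes 57 reached 1 in size, all of them with a lower average, and none of these passed.

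CDKN1A read 449.95 and 429 CPM in the untreated libraries and 679, 631 and 619.6 CPM after 48 h. Each of the 3 treated libraries was above both untreated ones. Its mean was 440 ± 14.5 CPM without ddC (SD, n = 2) and 643 ± 31.2 CPM with it (SD, n = 3), so it rose 1.46-fold, and the log2 fold change was 0.55 ± 0.08 (SE; adjusted p = 0.0106, edgeR's quasi-likelihood test with Benjamini-Hochberg adjustment over all genes). It was called among 0.00748% of the genes tested. At the other times CDKN1A averaged 588 ± 55.2 CPM at 24 h, 673 ± 64.3 CPM at 72 h and 879 ± 23.2 CPM at 96 h (SD, n = 3 each). The difference of 48 h from 24 h was 0.13 ± 0.07 on the log2 scale (adjusted p = 1.00 by edgeR) and that of 72 h from 48 h was 0.07 ± 0.07 (adjusted p = 0.939 by edgeR), so neither neighbouring step passed. The call of CDKN1A did not hold in every leave-one-out fit: the adjusted p by edgeR was 0.0573 when 48 h replicate 1 was left out, 0.185 when it was untreated replicate 1 and 0.523 when it was untreated replicate 2. The log2 fold change in those fits was 0.51, 0.58 and 0.51; with 1 untreated library left, its spread is assumed to be that of the other groups.

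**Figure D1:**
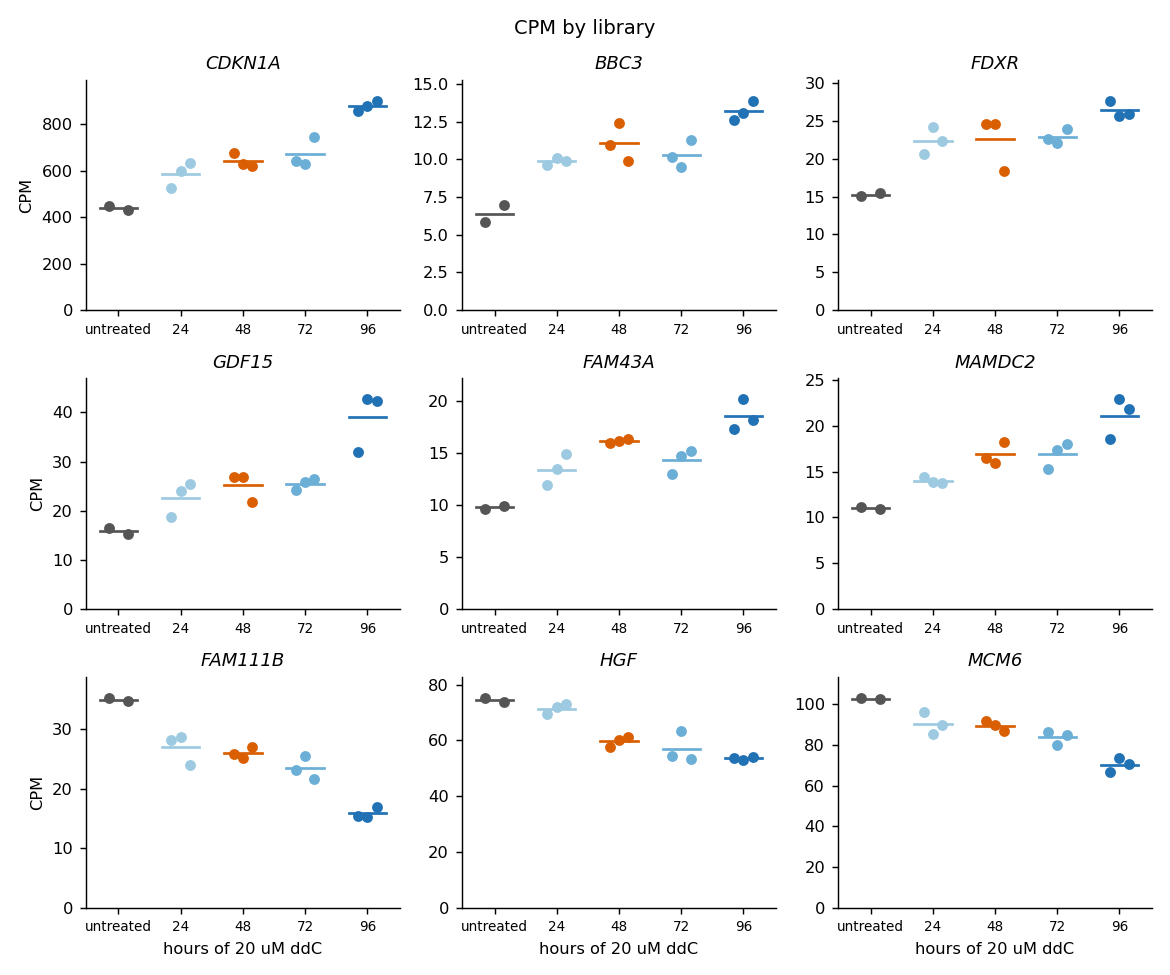
CPM (vertical axis, from 0) in each library for 9 genes; the horizontal axis gives the untreated group and the hours of 20 uM ddC, points are libraries and lines are group means, with 48 h in orange. CDKN1A at 48 h lies between 619.6 and 679 CPM, above both untreated libraries, and of these genes it alone passed the test across all genes at 48 h.

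By the 5% level without adjustment, 419 genes were higher at 48 h (3.13% of those tested) and 385 were lower (2.88%), and 51.0% of all genes had a log2 fold change above 0. After adjustment edgeR called 0 genes lower, as did DESeq2, which also called CDKN1A alone, while limma-voom called 0 genes in either direction (CDKN1A had an adjusted p of 0.0513 there). Libraries of the 2 groups did not overlap, with all 48 h values above, for 11.7% of all genes, and with all 48 h values below for 12%. These shares are the background against which the gene lists are read.

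CDKN1A was counted over transcript NM_001220778, on the plus strand at chr6:36646487-36655116 (hg19). Its promoter is shown because it is the gene that passed. These are the 250 bases before the start in the RefSeq promoter table, whose build is GRCh38.p14 (chr6:36678464-36678713, plus strand), with the matches to GGGCGG, the GC box bound by Sp1 family factors, in capitals.
CDKN1A: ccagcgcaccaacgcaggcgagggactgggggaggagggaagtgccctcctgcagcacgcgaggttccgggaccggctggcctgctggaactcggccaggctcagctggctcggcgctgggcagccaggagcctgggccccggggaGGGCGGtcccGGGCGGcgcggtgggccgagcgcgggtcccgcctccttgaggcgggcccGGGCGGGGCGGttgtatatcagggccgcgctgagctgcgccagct
The stretch holds 4 such boxes, 2 of them overlapping by a base, and 45.0% of the 35116 promoter windows in that table hold a GC box on either strand. The window was also searched for the p53 consensus, a pair of 10-base half-sites with no spacer, allowing 3 mismatches over 20 bases with both CNNG cores intact; the motif is its own reverse complement, so both strands were covered. CDKN1A had no such match in this window.

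The p53 list held 45 genes that p53 is known to activate, and all 45 were tested. p53 is a transcription factor stabilised by DNA damage and other stresses, and its targets halt the cell cycle, start apoptosis, repair DNA and, through MDM2, limit p53 itself. At 48 h, 39 of the 45 lay above 0, beside 51.0% of all genes. At unadjusted p below 0.05, 21 were higher and 0 lower, beside 3.13% and 2.88% of all genes, and for 25 the libraries at 48 h were all above both untreated ones, beside 11.7%. The list's median log2 fold change was 0.17, against 0.003 over all genes. Library by library the median over the list was 0.19, 0.19 and 0.17, so the 3 treated libraries were alike in this respect. It was 0.17 with the nuclear RNA level of each library (MALAT1, KCNQ1OT1, MEG3 and NEAT1, averaged as log2 CPM) as a covariate and 0.19 after the median of each gene's length class was subtracted, and the median length of the list's transcripts, 3183 bases, was near the 3093 of all tested genes. Only CDKN1A passed the adjusted test, and the list was drawn up with earlier results of these data known.

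Among the p53 targets that promote apoptosis, BBC3, which encodes the BH3-only protein PUMA, read 5.81 and 6.97 CPM untreated and 11.0, 12.4 and 9.88 CPM at 48 h. The groups did not overlap, and the log2 fold change of 0.79 ± 0.14 had an adjusted p of 0.0784 by edgeR. FAS, the death receptor, read 49.1 and 45.8 CPM untreated against 60.4, 59.2 and 60.8 CPM (log2 fold change 0.34 ± 0.09). BAX, a pore-forming member of the BCL2 family, read 95.9 and 97.2 CPM against 118, 114 and 109 CPM, a log2 fold change of 0.23 ± 0.07. AEN, a nuclease, and TNFRSF10B, a TRAIL receptor, had log2 fold changes of 0.21 ± 0.07 and 0.12 ± 0.06. PMAIP1, another BH3-only gene, was at 0.05 ± 0.10 with overlapping groups, and APAF1, of the apoptosome, was at -0.06 ± 0.08. These 7 apoptotic members thus ranged from 0.79 to -0.06, and none of them passed the adjusted test.

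Among the targets that slow the cell cycle other than CDKN1A, BTG2, an antiproliferative cofactor of mRNA decay, read 10.5 and 12.3 CPM untreated and 17.9, 17.7 and 16.1 CPM at 48 h. Its log2 fold change was 0.60 ± 0.13 (adjusted p = 0.338 by edgeR). The groups did not overlap, which was part of the rule by which BTG2 was named. GADD45A read 46.0 and 47.0 CPM against 49.8, 60.0 and 57.6 CPM, a log2 fold change of 0.26 ± 0.08, and PLK2 had 0.17 ± 0.06. In DNA repair, DDB2, which recognises ultraviolet lesions, read 35.6 and 33.2 CPM untreated and 40.7, 39.8 and 43.9 CPM at 48 h. Its log2 fold change was 0.27 ± 0.08, while XPC, of the same repair pathway, had 0.11 ± 0.06 and POLH, a translesion polymerase, -0.07 ± 0.11 with overlapping groups. RRM2B, the p53-inducible subunit of ribonucleotide reductase that supplies deoxynucleotides to resting cells and to mtDNA, read 51.2 and 42.3 CPM untreated against 49.3, 51.9 and 54.2 CPM. The groups overlapped for RRM2B (0.15 ± 0.09).

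Several targets linked to mitochondria or secretion were among those with the smallest p. FDXR, the mitochondrial ferredoxin reductase, read 15.1 and 15.4 CPM untreated and 24.6, 24.6 and 18.4 CPM at 48 h, with replicate 3 the lowest of the 3 and still above both untreated libraries. Its log2 fold change was 0.56 ± 0.12 (adjusted p = 0.293 by edgeR). Without 48 h replicate 3 FDXR had a log2 fold change of 0.69 and passed (adjusted p = 0.0165 by edgeR). Without 48 h replicate 1 it did not pass (adjusted p = 0.999 by edgeR). FDXR passed in 2 of 21 alternative fits, with log2 fold changes between 0.49 and 0.69 over the 21. SPATA18, which encodes a protein of mitochondrial quality control also named MIEAP, read 5.81 and 6.61 CPM against 9.39, 9.93 and 10.9 CPM (0.70 ± 0.15). GDF15, a secreted stress cytokine that is a target of both p53 and the integrated stress response, read 16.5 and 15.3 CPM untreated and 26.9, 26.9 and 21.7 CPM at 48 h. Its log2 fold change was 0.66 ± 0.15 (adjusted p = 0.338 by edgeR), without overlap. PHLDA3, an inhibitor of AKT signalling, had 0.39 ± 0.09 and SESN1, a sestrin that restrains mTORC1, 0.40 ± 0.12. MDM2, the ubiquitin ligase of the p53 feedback loop, read 93.7 and 99.1 CPM untreated and 105, 107 and 111 CPM at 48 h. Its log2 fold change of 0.16 ± 0.07 was near the list's median, and PPM1D, a phosphatase of the same loop, was at 0.12 ± 0.10 with overlapping groups.

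Of the 45 listed genes, 36 had an entry by symbol in the RefSeq promoter table (GRCh38.p14; 250 bases before to 50 after each start). Under the search given above, 10 of these 36 genes held a match to the p53 consensus in 12 of their 54 windows, beside 1.12% of all 35116 windows of the same length. Genes are put on p53 target lists in part for such sites, so this count is a description of the list. The matches of the 7 genes that were also higher at unadjusted p below 0.05 are printed to show what lies beside their starts, with the core of each half-site in capitals and read on the gene's strand.
DDB2, chr11:47214969-47214988, plus strand: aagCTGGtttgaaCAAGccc
FAS, chr10:88991309-88991328, plus strand: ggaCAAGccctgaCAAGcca
AEN, chr15:88621306-88621325, plus strand: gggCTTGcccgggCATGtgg
MDM2, chr12:68808923-68808942, plus strand: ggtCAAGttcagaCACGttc
SESN1, chr6:109009018-109009037, minus strand: ggaCAAGtctccaCAAGtca
GDF15, chr19:18386186-18386205, plus strand: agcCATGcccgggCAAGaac
FDXR, chr17:74872996-74873015, minus strand: gggCAGGagcgggCTTGccc
DDB2 had 1 mismatch, FAS, AEN and MDM2 had 2, and SESN1, GDF15 and FDXR had 3. The other 3 genes with a match were ASTN2, PMAIP1 and RPS27L, whose log2 fold changes were 0.25, 0.05 and 0.14. CDKN1A, BBC3, SPATA18 and BTG2, which had smaller p than most of the genes with a match, had none within these windows.

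**Figure D2:**
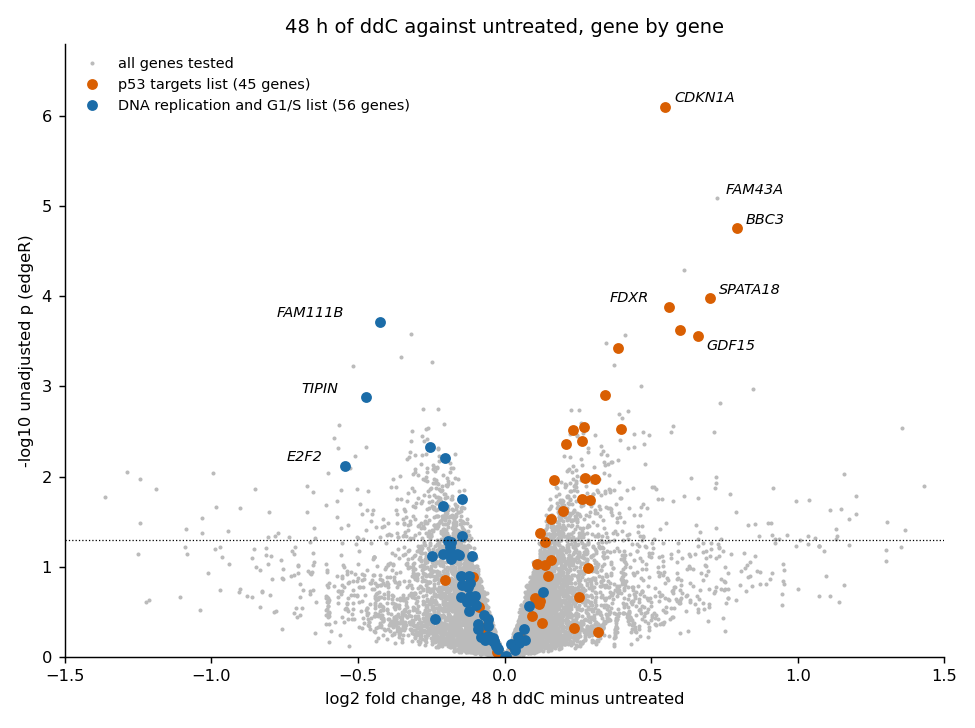
Each point is 1 tested gene, with the log2 fold change at 48 h against untreated on the horizontal axis and -log10 of the unadjusted edgeR p on the vertical axis; the dotted line marks the unadjusted 5% level, and genes beyond 1.5 in size on the log2 scale lie outside the frame. Orange points are the 45 p53 targets, of which 39 lie to the right of 0, and blue points are the 56 genes of DNA replication and G1/S, of which 47 lie to the left.

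Genes of DNA replication and of the G1/S transition, which are switched on by E2F factors as cells enter S phase, lay on the other side of 0. Of the 56 tested, 47 were below 0, beside 49.0% of all genes. At unadjusted p below 0.05, 8 were lower and 0 higher, beside 2.88% and 3.13% of all genes, and for 21 the 48 h libraries were all below both untreated ones, beside 12%. The median was -0.11, and in the 3 libraries -0.09, -0.14 and -0.10. It was -0.10 with the nuclear RNA covariate and -0.12 relative to the length classes. Without 48 h replicate 2 the number lower at that level was 5 and with the covariate 17. None of the 56 passed the adjusted test as reported.

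FAM111B, a protease whose transcript peaks in S phase, had the smallest p of all genes below 0. It read 35.2 and 34.7 CPM untreated and 25.8, 25.2 and 27.0 CPM at 48 h, a log2 fold change of -0.43 ± 0.09 (adjusted p = 0.338 by edgeR). The spread within each group was small beside the gap between them. TIPIN, which protects stalled replication forks, read 17.3 and 16.7 CPM untreated and 13.4, 12.6 and 10.7 CPM at 48 h (-0.47 ± 0.13). E2F2, a transcription factor of the G1/S switch, read 8.41 and 7.67 CPM against 5.25, 6.11 and 5.18 CPM (-0.54 ± 0.18). The replicative helicase is a ring of 6 MCM proteins, of which MCM6 read 103 and 103 CPM untreated and 91.7, 89.7 and 86.7 CPM at 48 h. Its log2 fold change was -0.20 ± 0.07, and MCM4, MCM3, MCM2, MCM7 and MCM5 had -0.15, -0.12, -0.12, -0.11 and -0.07. All 6 helicase genes were thus below 0, by less than 1.2-fold, and MCM5 was the one whose groups overlapped. PCNA, the sliding clamp, which p53 is also known to activate, read 191 and 178 CPM against 204, 190 and 191 CPM (0.08 ± 0.07). CDT1, the licensing factor, was at 0.13 ± 0.10 with overlapping groups.

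Outside replication proper, CDCA7, a MYC and E2F target, read 46.0 and 47.5 CPM untreated and 34.2, 39.0 and 36.6 CPM at 48 h (-0.35 ± 0.09). MSH6, of mismatch repair, read 109 and 109 CPM against 95, 89.9 and 94.6 CPM (-0.23 ± 0.06). Of the 40 genes of G2/M and mitosis, 14 were above 0, with 1 higher and 1 lower at unadjusted p below 0.05 and a median of -0.02. MKI67, the proliferation antigen, read 385 and 450.4 CPM untreated against 318, 332 and 340 CPM, and UBE2C, a ubiquitin-conjugating enzyme of mitotic exit, read 106 and 108 CPM against 133, 114 and 122 CPM. These 2 members pointed in opposite directions, with log2 fold changes of -0.34 ± 0.15 and 0.20 ± 0.08. Of 40 ribosome biogenesis genes, 11 were above 0 (median -0.07), and 3 were lower and 0 higher at that level; DDX21, a nucleolar helicase, had -0.18 ± 0.06 and GNL3, nucleostemin, -0.15 ± 0.06. Of 11 genes in the list of replication-dependent histones 5 were above 0. The messages of such histones mostly lack the poly(A) tail on which these libraries depend. H1F0 (-0.15), counted in this list, is a replication-independent histone.

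Genes outside the lists were among the nearest to the threshold. FAM43A, whose function is little known, read 9.63 and 9.88 CPM untreated and 15.9, 16.1 and 16.3 CPM at 48 h. The 2 groups were each tight, and the log2 fold change was 0.72 ± 0.12 (adjusted p = 0.0547 by edgeR), the second smallest p of all genes. FAM43A passed in 5 of the 21 alternative fits, with log2 fold changes between 0.70 and 0.74 over the 21. MAMDC2, a secreted proteoglycan, read 11.2 and 10.9 CPM untreated and 16.5, 16.0 and 18.2 CPM (0.61 ± 0.12; adjusted p = 0.169 by edgeR). RDH10, the retinol dehydrogenase that starts retinoic acid synthesis, read 31.7 and 31.7 CPM against 42.5, 42.4 and 41.4 CPM (0.41 ± 0.09). GADD45B, a stress-inducible relative of GADD45A, read 33.2 and 33.8 CPM against 43.1, 42.4 and 42.1 CPM (0.34 ± 0.08). The groups did not overlap for any of these genes, which was part of the rule by which they were named.

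In the other direction, HGF, the hepatocyte growth factor that fibroblasts secrete towards epithelium, read 75.2 and 73.9 CPM untreated and 57.7, 60.2 and 61.3 CPM at 48 h (-0.32 ± 0.07; adjusted p = 0.338 by edgeR). HGF averaged 71.5 ± 1.88 CPM at 24 h (SD, n = 3), and its difference of 48 h from 24 h was -0.26 ± 0.07 on the log2 scale without passing (adjusted p = 1.00 by edgeR). SLC7A2, a cationic amino acid transporter, read 99.3 and 97.4 CPM against 81.7, 82.6 and 84.2 CPM (-0.25 ± 0.06). TET3, a dioxygenase that oxidises 5-methylcytosine, read 16.3 and 20.9 CPM against 12.4, 13.2 and 13.3 CPM, a log2 fold change of -0.52 ± 0.13. SLC4A4, a bicarbonate cotransporter, had -0.28 ± 0.08, PCDH18, a protocadherin, -0.21 ± 0.06, and BMF, a BH3-only apoptosis gene, -0.56 ± 0.17. BMF thus lay opposite to BBC3, with values of 10.6 and 8.11 CPM untreated and 6.72, 6.20 and 6.08 CPM at 48 h.

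The genes that handle ddC and mtDNA were near their untreated level. None of the 25 genes of nucleotide supply and ddC handling was higher or lower at unadjusted p below 0.05, and their median was 0.03. DCK, the kinase that first phosphorylates ddC, read 58.6 and 49.8 CPM untreated and 54.3, 47.2 and 50.3 CPM at 48 h. SLC29A1, a nucleoside transporter, read 22.6 and 22.7 CPM against 23.0, 20.0 and 21.0 CPM, and TK1, the S phase thymidine kinase, 146 and 142 CPM against 163, 161 and 145 CPM. All 3 genes had overlapping groups. Of 31 genes that replicate and maintain mtDNA, 18 were above 0, with a median of 0.01, and 1, LRPPRC, which stabilises mitochondrial mRNA, was lower at that level (-0.17 ± 0.07). POLG, the catalytic subunit of polymerase gamma, read 54.9 and 61.8 CPM untreated and 53.9, 66.1 and 55.9 CPM at 48 h (0.01 ± 0.13). TFAM, which packages mtDNA, read 49.3 and 48.7 CPM against 45.9, 41.8 and 47.8 CPM; every treated value was lower, by a log2 fold change of -0.12 ± 0.09. TWNK, the mtDNA helicase, was at -0.18 ± 0.11.

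Nuclear genes of the respiratory chain gave small positive medians, which were smaller without 48 h replicate 1 and relative to the length classes. The cause of this was not tested. Of 38 complex I subunits 34 were above 0, with 5 higher and 0 lower at unadjusted p below 0.05 and a median of 0.09. The median was 0.17 in 48 h replicate 1, which had the least MALAT1, and 0.02 and 0.03 in the others. Without that replicate the median was 0.04, with 27 of 38 above 0, and 1 subunit was higher and 1 lower at that level. The subunits' transcripts are short, with a median of 849 bases, and relative to genes of their length classes the median was 0.03, with 22 of 38 above 0. NDUFC1, a small accessory subunit, read 33.2 and 32.4 CPM untreated and 41.3, 37.4 and 37.6 CPM at 48 h (0.24 ± 0.09), and NDUFS8, an iron-sulfur subunit, 45.4 and 47.1 CPM against 58.5, 55.6 and 49.4 CPM (0.24 ± 0.09). Complexes II to V had a median of 0.04 over 41 genes, which was 0.002 relative to the length classes, and the 74 mitochondrial ribosomal proteins had 0.04, which was -0.01 on that scale. Without 48 h replicate 1 these medians were 0.0003 and 0.02, and without untreated replicate 2 they were 0.005 and 0.01. Among 20 mitochondrial chaperones and proteases 11 were above 0, and HSPD1 and LONP1, classical genes of the mitochondrial unfolded protein response, were at -0.09 ± 0.06 and 0.06 ± 0.08.

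**Figure D3:**
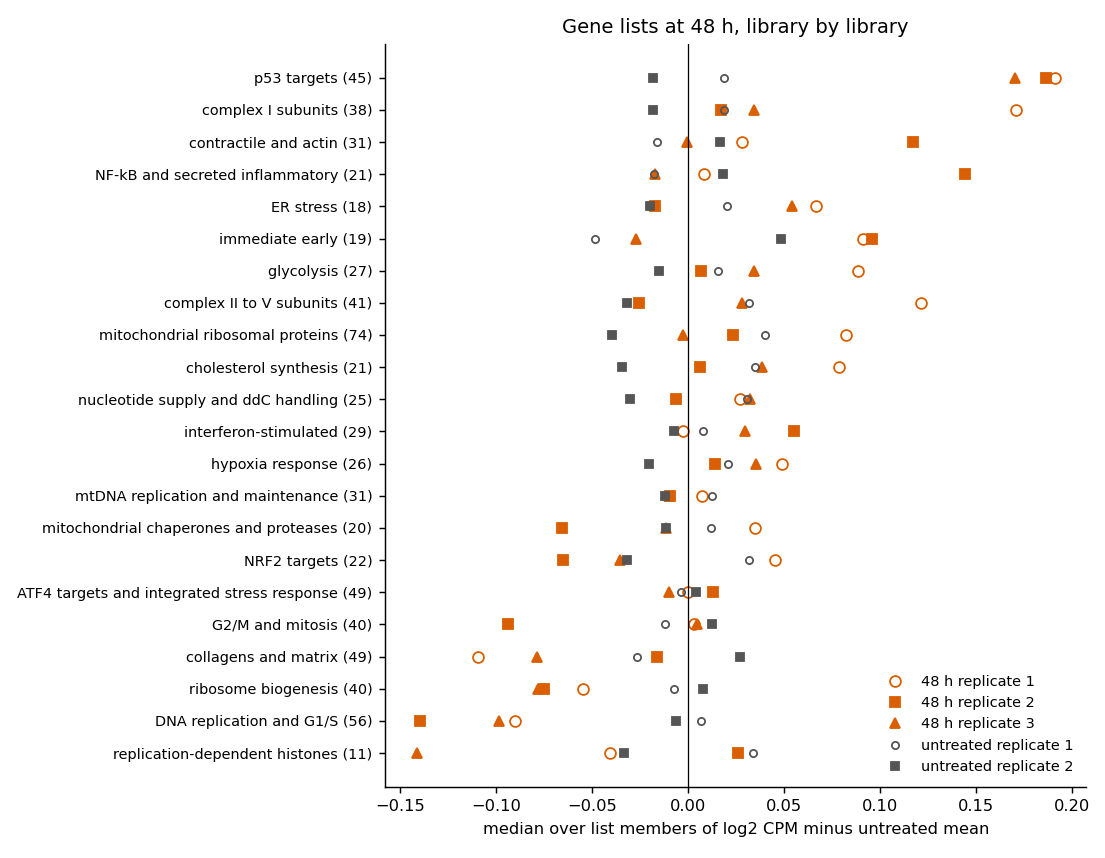
For each of 22 gene lists (number of tested genes in brackets), points give the median over the list of log2 CPM minus the mean of the untreated libraries, for each 48 h library (orange) and each untreated library (grey). The p53 medians lie at 0.19, 0.19 and 0.17 and those of DNA replication at -0.09, -0.14 and -0.10, whereas the complex I median of 0.17 belongs to replicate 1.

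The integrated stress response, in which phosphorylation of eIF2 alpha favours translation of ATF4 and ATF4 then activates amino acid synthesis and transport, is often described in cells with impaired mitochondria. At 48 h the 49 tested of its 52 listed genes had a median of -0.01, with 23 above 0, beside 51.0% of all genes. At unadjusted p below 0.05, 4 were higher and 2 lower. ATF4 itself read 239 and 254 CPM untreated and 245, 248 and 240.4 CPM at 48 h (-0.01 ± 0.06). ASNS, asparagine synthetase, read 160.2 and 148 CPM against 154, 144 and 162 CPM, and PSAT1, of serine synthesis, 225 and 207 CPM against 201, 196 and 205 CPM. The values of ATF4 and ASNS overlapped between groups, and those of PSAT1 were lower at 48 h by -0.11 ± 0.06. DDIT3, ATF5, TRIB3, PHGDH, SESN2 and DDIT4 had log2 fold changes between -0.08 and 0.12. CHAC1, which degrades glutathione, was at 0.18 ± 0.08, and ATF3, a stress-induced repressor, read 4.16 and 4.94 CPM untreated and 5.43, 7.04 and 7.70 CPM (0.57 ± 0.17). SLC7A11, the cystine transporter, read 264 and 280.1 CPM against 202, 236 and 239.7 CPM (-0.27 ± 0.08). GDF15 and ATF3, the members with the largest values above 0, are also induced by other stresses.

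Matrix genes lay slightly below their untreated level. Of 49 collagens and matrix genes 18 were above 0, the median was -0.06, and 10 were lower and 3 higher at unadjusted p below 0.05. LAMA4, a laminin chain, read 144 and 123 CPM untreated and 111, 117 and 116 CPM at 48 h (-0.22 ± 0.07). COL4A1, of basement membrane collagen, read 2782 and 2888 CPM against 2390.5, 2598 and 2503 CPM (-0.18 ± 0.06). Many of these transcripts are long, with a median of 5378 bases over the list, and relative to the length classes the median was -0.01. Without 48 h replicate 1 the median was -0.02, with 2 lower and 1 higher at that level, and without untreated replicate 2 it was -0.03, with 3 lower and 2 higher. Of 31 contractile and actin genes 21 were above 0 (median 0.07), and 2 were higher at unadjusted p below 0.05, CNN1, a smooth muscle calponin, among them (0.21 ± 0.09). The contractile median was 0.03, 0.12 and -0.00 in 48 h replicates 1, 2 and 3. Without replicate 2 it was 0.03, with 17 of 31 above 0, 0 higher and 1 lower at that level. Without untreated replicate 1 or 2 it was 0.04 in both cases, with 0 and 1 higher. ACTA2, smooth muscle actin and the usual mark of a myofibroblast, read 488 and 458 CPM untreated and 491, 523 and 509 CPM at 48 h (0.10 ± 0.08).

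The remaining stress and metabolic lists had medians between -0.01 and 0.06. Among 29 interferon-stimulated genes 2 were higher and 2 lower at unadjusted p below 0.05. ISG15, a ubiquitin-like modifier, read 12.5 and 13.7 CPM untreated and 21.1, 17.7 and 16.6 CPM (0.49 ± 0.15), whereas IFIT1 was at 0.03 ± 0.17 and XAF1, a proapoptotic member, at -0.85 ± 0.32. Of 21 NF-kB and inflammatory genes 2 were higher and 2 lower; CCL2, a chemokine, had 0.36 ± 0.14 and IL6 0.40 ± 0.22 with all 3 treated libraries (3.32, 4.07 and 4.21 CPM) above the untreated 2.69 and 3.17 CPM. Hypoxia genes had a median of 0.02, with MXI1, a MYC antagonist, the 1 member lower at that level (-0.31 ± 0.12). Glycolysis had 0.04, with 2 higher, of which PDK2, an inhibitory kinase of pyruvate dehydrogenase, read 19.9 and 22.2 CPM untreated against 26.0, 28.7 and 27.2 CPM (0.37 ± 0.09). ER stress, NRF2 and cholesterol synthesis had medians of 0.05, -0.01 and 0.04, with 0, 0 and 1 higher and 0, 2 and 0 lower. Among 19 immediate early genes 3 were higher, KLF2 (0.36 ± 0.13) among them.

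More genes passed when the nuclear RNA level of each library was entered as a covariate, a fit chosen after seeing that these RNAs differed within groups. edgeR then called 34 genes, 14 higher and 20 lower, and each had the sign reported above. Of the 13371 genes tested in this fit 14 were thus higher, and 8 of these were among the 45 listed p53 targets. This count was not tested, and the list was drawn up with earlier results of these data known. The 8 were CDKN1A, BBC3, FDXR, SPATA18, BTG2, GDF15, PHLDA3 and FAS. FAM43A, MAMDC2, RDH10, GADD45B and PDK2 also passed there, as did STOM, a membrane protein. The 20 lower genes included FAM111B and TIPIN of the replication list, COL12A1, FBN1 and FN1 of the matrix list, and HGF, CDCA7, SLC7A2, TET3, MKI67 and SLC7A11. The median transcript length of the 20 was 11443 bases, against 2715 for the 14 higher and 3093 for all genes, so the lower set and the length gradient described above moved together.

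Whether 48 h differed from the neighbouring times was tested without the untreated libraries. Between 24 h and 48 h edgeR called 0 genes, with 300 higher (2.24%) and 241 lower (1.80%) at unadjusted p below 0.05; DESeq2 called 1 and limma-voom 0. The gene called by DESeq2 was SEMA7A, a semaphorin, with a log2 difference of 0.34 and an adjusted p of 0.376 by edgeR; it was named after its values were seen. The 45 p53 targets had a median difference of 0.00 between these times, with 23 of them above 0, beside 49.4% of all genes, and 2 higher and 1 lower at unadjusted p below 0.05. The 56 replication genes had 0.05, with 2 higher and 0 lower. The ATF4 list was lower at 48 h than at 24 h in 36 of 49 genes, beside 50.6% of all genes, with a median of -0.07 and 9 lower at that level, and the matrix list had -0.09, with 8 lower. In single libraries the ATF4 median stood at 0.06, 0.08 and 0.07 at 24 h, relative to untreated cells. At 48 h it stood at -0.00, 0.01 and -0.01. Leaving out each 24 h or 48 h library in turn left between 7 and 10 ATF4 genes lower and 0 higher at that level. The ATF4 median in those fits lay between -0.04 and -0.08. The matrix values depended more on single libraries: without 24 h replicate 2 the matrix median was -0.03, with 5 lower and 20 of 49 genes above 0. Without 24 h replicate 3, 15 matrix genes were lower at that level, and without 48 h replicate 1, 5 were.

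Between 48 h and 72 h edgeR called 8 genes, all higher at 72 h (0.0598% of those tested), and 0 lower, with 397 higher (2.97%) and 315 lower (2.36%) at unadjusted p below 0.05. DESeq2 called 29 higher and 1 lower, and limma-voom 2 higher and 0 lower. ACTA2 rose from 491, 523 and 509 CPM at 48 h to 787, 698 and 886 CPM at 72 h, a log2 difference of 0.64 ± 0.07 (adjusted p = 0.000146 by edgeR). TAGLN, a smooth muscle actin-binding protein, rose from 1495, 1513 and 1409.6 CPM to 1861, 1742 and 2039.6 CPM. At 48 h both had been near their untreated level: the means were 1.07-fold the untreated 473 CPM for ACTA2 and 1.08-fold the untreated 1368 CPM for TAGLN. ELN, elastin, rose from 180.4, 183 and 168 CPM to 227, 229 and 266 CPM, and COL4A1 from 2390.5, 2598 and 2503 CPM to 3077, 3231 and 3204 CPM. SULF1, a heparan sulfate sulfatase, ITGA1, a collagen-binding integrin, ERRFI1, an inhibitor of EGF receptor signalling, and CORIN, a membrane protease, rose by log2 differences of 0.37, 0.37, 0.35 and 0.52, and TAGLN, ELN and COL4A1 by 0.35, 0.44 and 0.34. The adjusted p of these 7 genes by edgeR lay between 0.0185 (ITGA1) and 0.0330 (CORIN). The number of called genes depended on single libraries: leaving out replicate 1, 2 or 3 of 48 h gave 1, 4 and 3. Leaving out replicate 1 or 3 of 72 h gave 1 and 3, and leaving out replicate 3 of 24 h or of 96 h gave 16 and 4. ACTA2 was called in all 21 alternative fits. The other 7 genes were not called without 48 h replicate 1 or without 72 h replicate 1.

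**Figure D4:**
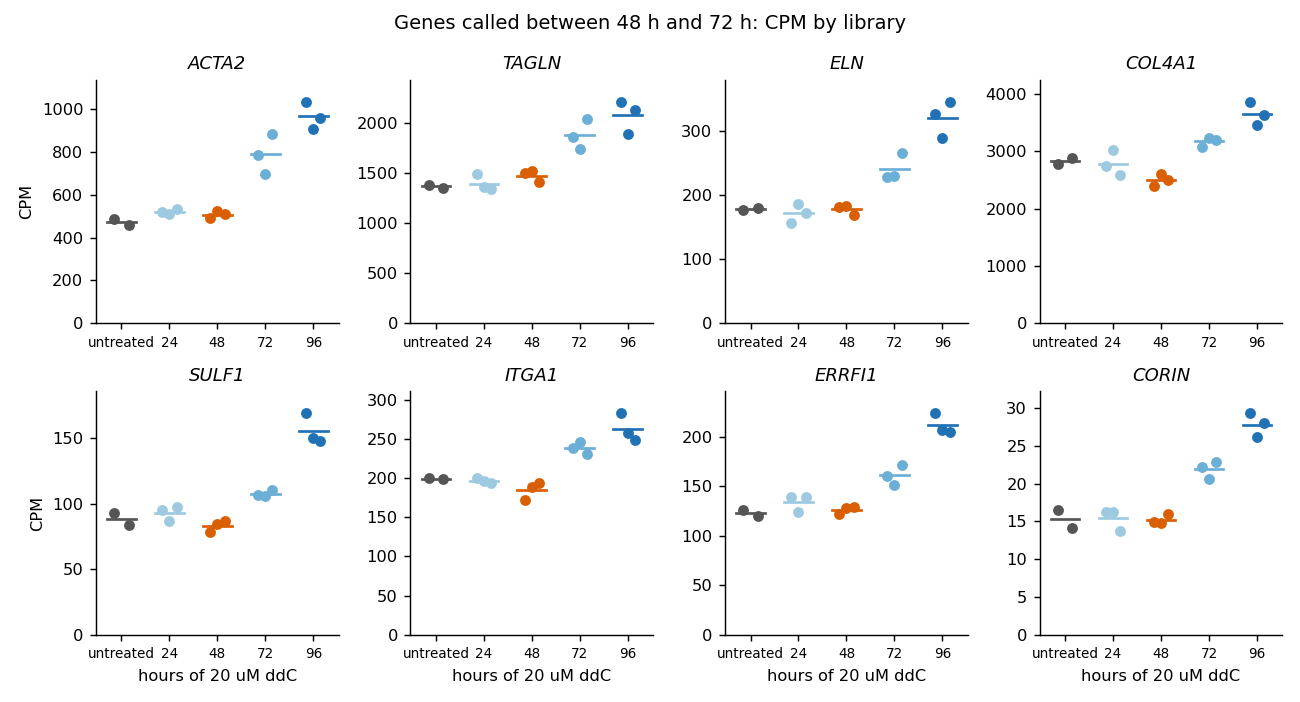
CPM (vertical axis, from 0) in each library for the 8 genes called between 48 h and 72 h, by hours of 20 uM ddC; points are libraries and lines are group means, with 48 h in orange. For each gene the 3 libraries at 72 h lie above the 3 at 48 h, for ACTA2 at 698 to 886 CPM against 491 to 523 CPM. The genes were chosen by this same difference.

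The ATF4, matrix and contractile lists lay higher at 72 h than at 48 h, while the DNA replication list lay lower (median -0.06, with 15 of 56 genes above 0 and 5 lower at unadjusted p below 0.05). Other lists moved too. Of 26 hypoxia genes 21 were above 0, with 5 higher at that level. Among lists that lay lower, 14 of 74 mitochondrial ribosomal, 9 of 41 complex II to V, 5 of 25 nucleotide supply and 3 of 21 cholesterol genes were above 0. Relative to the length classes these counts were 19, 13, 7 and 7, and that of the hypoxia genes was 22. Of the 49 ATF4 genes, 48 were above 0 in 72 h minus 48 h, beside 48.9% of all genes, with a median of 0.13 and 25 higher and 0 lower at unadjusted p below 0.05. That median was 0.15 relative to the length classes, and leaving out each 48 h or 72 h library in turn left between 18 and 23 genes higher at that level. In single libraries the ATF4 median stood at -0.00, 0.01 and -0.01 at 48 h and at 0.11, 0.11 and 0.19 at 72 h, relative to untreated cells. Of 49 matrix genes 47 were above 0, with a median of 0.14 (0.12 relative to the length classes) and 19 higher, and of 31 contractile genes all 31 were above 0, with a median of 0.13 and 12 higher. Without 48 h replicate 1 the number of matrix genes higher at that level was 12. The p53 list had a median of 0.03 in this step, with 0 higher and 0 lower at unadjusted p below 0.05. The opposite-strand index also differed in this step, being 0.917 to 1.02 at 72 h and below 0.81 in 48 h replicates 1 and 2, and its part in these differences was not tested. The 4 nuclear-retained RNAs had a median of 0.78 in this step, with 0 higher at unadjusted p below 0.05. With the nuclear RNA covariate the ATF4, matrix and contractile medians were 0.14, 0.11 and 0.11. Leaving out 48 h replicate 1, 2 or 3 gave ATF4 medians of 0.12, 0.14 and 0.13. The 48 h libraries enter both this step and the comparison with untreated cells, so the values of these comparisons are not independent of each other.

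**Figure D5:**
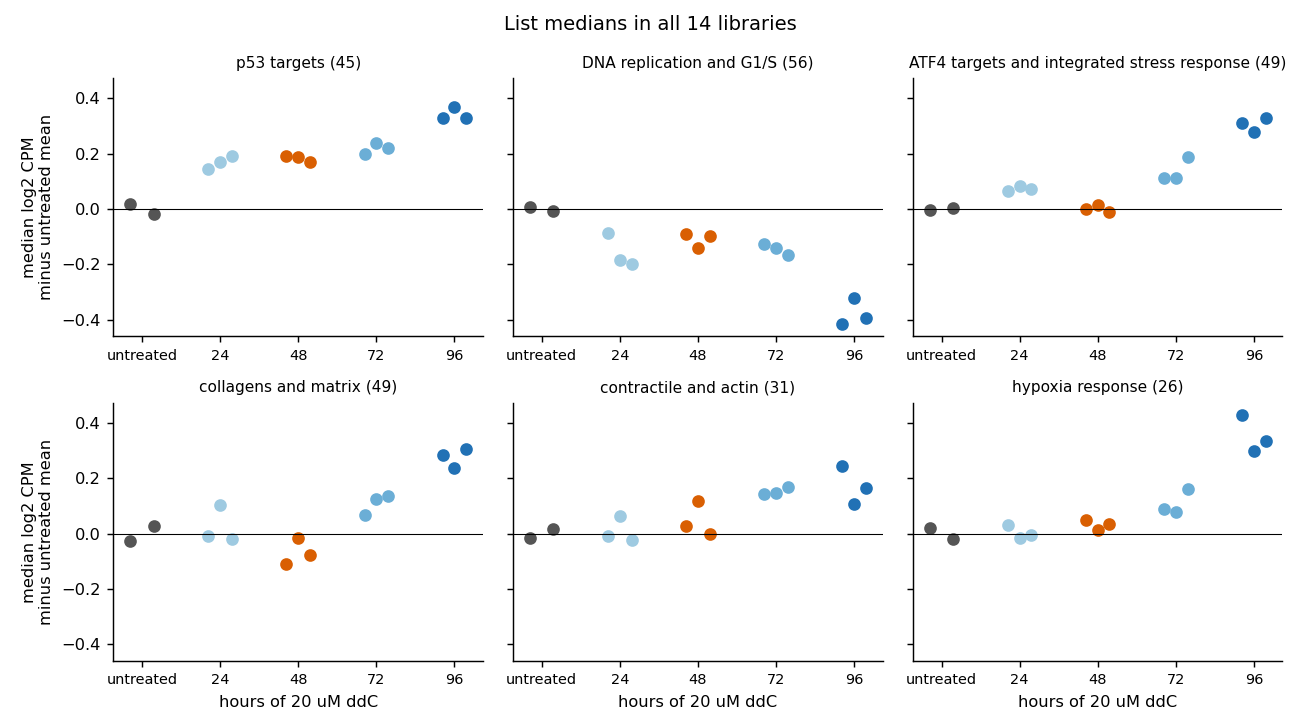
Median over each of 6 gene lists of log2 CPM minus the untreated mean (vertical axis), for all 14 libraries by hours of 20 uM ddC, with the number of tested genes in brackets and 48 h in orange. The p53 medians lie between 0.17 and 0.19 at 48 h, the ATF4 medians between -0.01 and 0.01 at 48 h and between 0.11 and 0.19 at 72 h.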

How the data were processed

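Polyadenylated RNA was sequenced as stranded libraries, per the labels' protocols. The submitters' processing notes name STAR 2.5.3a, HOMER and hg19. Their count table holds raw reads per gene, deposited by the authors without normalization; the counting options are not given in the sources used here. All 14 libraries (9398703 to 12147402 counts) entered 1 edgeR 4.0.16 quasi-likelihood fit (R 4.3.3) with 1 mean per group, TMM factors (0.971 to 1.02) and edgeR's filter on low counts, so that the spread rests on all groups. Values are TMM-scaled CPM, and p-values are two-sided, with Benjamini-Hochberg adjustment and a threshold of 0.05. DESeq2 1.42.0, limma-voom (limma 3.58.1), other scalings and filters, a replicate block and leave-one-out fits were alternatives. In simulated counts the edgeR fit called 18% of 50 genes changed 1.25-fold, 80% of 50 changed 1.5-fold and 96% of 50 changed 2-fold. It also called 12 unchanged genes, with 13241 genes in that fit. The simulation left out the nuclear RNA and length differences between libraries described above. It also held many changed genes at once, which eases the adjusted threshold, so these shares cannot be carried over to this comparison. Named genes were the called ones, the 10 smallest p on each side among expressed, non-overlapping genes, 2 per list and 29 fixed genes; other list members were added as examples of their roles after their values were seen. The comparison, its 23 lists and the fixed genes were chosen with earlier results of these data known, and list counts carry no test. Length classes used the deposited transcript lengths and were chosen after seeing the data.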

Additional observations from a re-analysis of the deposited data

Results flagged for a closer look

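For 8 genes the difference between 72 h and 48 h of ddC passed the test of that difference (edgeR's quasi-likelihood test with Benjamini-Hochberg adjustment). Of these, ACTA2 alone was called in every alternative fit. limma-voom called only ACTA2 and ITGA1, and DESeq2 called all of them but CORIN. The log2 difference of 72 h minus 48 h was 0.64 for ACTA2, 0.37 for ITGA1, 0.34 for COL4A1, 0.44 for ELN, 0.35 for ERRFI1, 0.37 for SULF1, 0.35 for TAGLN and 0.52 for CORIN. All 3 libraries at 72 h were above all 3 at 48 h for each of them. The genes were chosen by this same difference, so the separation is no further support for it. At 48 h none of the 8 had passed against untreated cells, where their log2 fold changes lay between -0.18 (COL4A1) and 0.11 (TAGLN).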

How the results depend on the processing

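Against the 1 gene called at 48 h, limma-voom called 0, the fit with no filter on low counts 3 (BBC3, CDKN1A and FAM43A), leave-one-out fits between 0 and 2, and the fit with the nuclear RNA covariate, added after seeing the data, 34. CDKN1A had a log2 fold change of 0.55 by limma-voom (adjusted p = 0.0513) and of 0.51 to 0.58 in the leave-one-out fits, and it was called in 17 of 21 alternatives. The cause of these differences was not tested. Between 24 h and 48 h DESeq2 called 1 gene and the covariate fit 3, against 0. Between 48 h and 72 h, against 8, DESeq2 called 30, limma-voom 2, the fit with no filter 20, the replicate block 15, the covariate fit 67 and leave-one-out fits between 1 and 16. The block left 1 call at 48 h against untreated and 0 against 24 h. Replicate numbers do not show a pairing: same-numbered libraries at 48 h and 24 h had correlations of deviations of -0.22, 0.47 and -0.05, and those at 48 h and untreated, with only 2 pairs, 0.37 and 0.36. Of 506 values of list medians under an alternative, 486 stayed within the spread between the 48 h libraries and 20 moved further. Fits without a 24 h, 72 h or 96 h library could hardly move these medians, and a list with 1 outlying library had a wide spread. The count of 486 is therefore no measure of stability. At these depths and with 2 untreated libraries the median SE of a log2 fold change was 0.100 for genes whose log2 CPM averaged 1 or more.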
